A study of Mus musculus with 2 samples.

Results

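The cyclin-dependent kinase inhibitors measured here were the 7 genes Cdkn1a, Cdkn1b, Cdkn1c, Cdkn2a, Cdkn2b, Cdkn2c and Cdkn2d, picked by symbol from the 19073 features of the count matrices. A separate custom p16 entry, 1 of 3 features added to the commercial mouse panel, was followed beside them. Livers came from male heterozygous p16-Tom mice on a C57BL/6 background (p16-CreERT2 crossed to R26-CAG-LSL-tdTomato-WPRE), in which tamoxifen lets cells that use the p16 promoter at that time switch on the red protein tdTomato for good. All mice received carbon tetrachloride (CCl4) for 4 weeks and tamoxifen, so no untreated liver was compared. Fixed, dissociated liver cells positive for a nuclear and a mitochondrial dye were sorted without (Tom-, p16low) or with (Tom+, p16high) tdTomato, and each fraction gave 1 library of probe-based single-cell RNA sequencing (10x Genomics Flex). With 1 library per group the groups could not be tested against each other, and p-values are not given. Each difference compares these 2 libraries, intervals cover counting error only, and the age and number of mice were not given in the sources used here.

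Cyclin-dependent kinases, switched on by cyclins, drive a cell through the division cycle, and these inhibitors hold them back. The CIP/KIP proteins p21 (Cdkn1a), p27 (Cdkn1b) and p57 (Cdkn1c) bind cyclin-kinase complexes of several kinds. The INK4 proteins p16 (Cdkn2a), p15 (Cdkn2b), p18 (Cdkn2c) and p19Ink4d (Cdkn2d) bind Cdk4 and Cdk6. In liver, p21 is a well-known target of p53 after damage, p57 comes from an imprinted gene, and p16Ink4a is widely used as a marker of senescent cells.

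The genes lie at these positions in mm10. Cdkn1a (ENSMUSG00000023067) spans 29090976 to 29100727 on the plus strand of chromosome 17, and Cdkn1b (ENSMUSG00000003031) spans 134920401 to 134925513 on the plus strand of chromosome 6. Cdkn1c (ENSMUSG00000037664) spans 143458339 to 143461050 on the minus strand of chromosome 7. Cdkn2a (ENSMUSG00000044303, 89274471 to 89294653), Cdkn2b (ENSMUSG00000073802, 89306299 to 89311039) and Cdkn2c (ENSMUSG00000028551, 109660876 to 109667189) are on the minus strand of chromosome 4, where the first 2 are neighbours. Cdkn2d (ENSMUSG00000096472) spans 21288410 to 21291407 on the minus strand of chromosome 9. The part of each transcript that the probes bind was not given in the sources used here, so levels are compared within a gene and not between genes.

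Cdkn2a and Cdkn1a each have more than 1 start. The windows before these starts are shown because the count of a gene is not split by transcript. Cdkn2c has more than 1 start as well, and its windows were searched but are not shown. Cdkn2a has p16Ink4a and the overlapping Arf transcript, which begins upstream and encodes another protein. Whether its probes count the first, the second or both was not given. RefSeq (GRCm38.p6) held 9 windows for 6 of the 7 members, each searched over the 250 bases before its start. It held none for Cdkn1c, which was therefore not searched. They are written 5′ to 3′ on the gene's strand up to the first exon in the GENCODE annotation. Capitals mark a p53 site, defined as a pair of abutting half-sites, 20 letters in all, with at most 1 letter off the consensus.
Cdkn2a before the Arf start, chr4:89294654-89294869 (minus): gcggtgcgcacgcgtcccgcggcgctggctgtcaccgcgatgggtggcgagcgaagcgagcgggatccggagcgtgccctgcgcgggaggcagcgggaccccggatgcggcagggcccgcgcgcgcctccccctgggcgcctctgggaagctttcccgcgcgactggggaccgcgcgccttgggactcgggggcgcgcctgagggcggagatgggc
Cdkn2a before the p16Ink4a start, chr4:89282193-89282442 (minus): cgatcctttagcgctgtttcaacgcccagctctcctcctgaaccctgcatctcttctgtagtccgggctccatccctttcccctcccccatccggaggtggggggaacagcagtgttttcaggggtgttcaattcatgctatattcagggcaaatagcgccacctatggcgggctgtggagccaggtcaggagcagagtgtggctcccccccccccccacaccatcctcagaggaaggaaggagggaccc
Cdkn1a upstream start, chr17:29090729-29090975 (plus): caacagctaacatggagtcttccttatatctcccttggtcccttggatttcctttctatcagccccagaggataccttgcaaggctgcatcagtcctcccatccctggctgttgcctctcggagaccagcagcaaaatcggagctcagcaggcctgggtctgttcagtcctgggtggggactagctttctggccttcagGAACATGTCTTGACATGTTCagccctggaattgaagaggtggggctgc
Cdkn1a downstream start, chr17:29093519-29093768 (plus): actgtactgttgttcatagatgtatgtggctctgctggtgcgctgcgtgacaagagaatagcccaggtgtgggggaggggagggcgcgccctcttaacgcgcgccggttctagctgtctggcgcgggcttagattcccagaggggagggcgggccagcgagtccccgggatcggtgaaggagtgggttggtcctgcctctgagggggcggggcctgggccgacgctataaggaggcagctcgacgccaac

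The p53 site of Cdkn1a, which begins 51 bases before the upstream RefSeq start, was the only one in the 9 member windows, and 25 of 32851 windows of all genes (0.0761%) hold one. An E2F site (TTTCCCGC, TTTGGCGC, TTTCGCGC or TTTGCCGC on either strand) was found in 1 of 9 member windows, that of the Arf start, and in 1.86% of all windows. The GC box GGGCGG was in 5 of 9 member windows against 32.7% of all windows. The TCF letters ATCAAAG (3.21% of all windows) and the E-box CACGTG (6.02%) were in 0 of 9, which do not cover Cdkn1c. These are matches of letters and not measured binding.

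The cells kept numbered 20159 in the Tom- and 13378 in the Tom+ library, with a median of 26694 and 36075 UMIs (unique molecular identifiers, 1 per captured molecule). The libraries shared 503 barcodes (2.17% of Tom- and 3.08% of Tom+ barcodes). Clusters with few genes were left out once, as were clusters with Ptprc, Dcn or Pecam1 at 2.5 times its median over the clusters or more. The largest group left out held 3422 Tom- but 277 Tom+ cells and was led by Mfsd2a, Cyp2d10 and Dpyd. Its median was 13630.5 UMIs in Tom- and 31952 UMIs in Tom+ cells. Cells of this kind were thus lost mostly from the Tom- library, and whether they are hepatocytes was not tested. After these steps 11022 Tom- and 10019 Tom+ cells were called hepatocytes. Their 7 hepatocyte markers summed to 153619 and 146062 CPM (the usual library-scaled unit, in which a feature's UMIs are set against the summed UMIs of the same cells). The second clustering still set apart 3 small groups rich in other markers, which stayed among the hepatocytes but in no zone class. Cluster 9 (185 Tom- and 62 Tom+ cells, led by Marco and Cd163) had macrophage markers at 6.48 and 8.50 times the hepatocyte sum. Cluster 10 (80 and 80 cells, led by Col3a1 and Col1a1) had stellate and fibroblast markers at 12.7 and 9.80 times. Cluster 11 (50 and 16 cells, led by Dmbt1 and Mmp7) had cholangiocyte markers at 42.3 times in Tom- cells. Lobule position was given by named clusters and by a score. Zone 1-like clusters, with genes of hepatocytes near the portal tract, held 4631 Tom- and 2276 Tom+ cells. Zone 3-like clusters, named by markers of hepatocytes around the central vein, held 2872 and 5928 cells, and 3519 and 1815 cells stayed unnamed. Zone 3-like clusters 0, 2 and 6 held 1307, 1519 and 46 Tom- cells and 2481, 1756 and 1691 Tom+ cells. Cluster 2, led by Cyp3a44 and the zone 2 marker Igfbp2, had Glul at 17.4 and 24.5 CPM, against 244 and 301 CPM in cluster 0. Values within the zone 3-like class thus do not hold lobule position constant between the libraries. The score, zone 3 markers minus zone 1 markers, was divided into 5 bins of equal cell number over both libraries, from bin 1 (periportal) to bin 5 (pericentral). The bins are ranges and not cell types: 3009 of 21041 hepatocytes (14.3%) lay within 0.05 SD of a limit. From bin 1 to bin 5 the central-vein gene Glul, itself a marker of the score, went from 6.08 to 273 CPM in Tom- and from 10.1 to 364 CPM in Tom+ cells. None of the inhibitors was used to cluster or to score cells. Shares of cells with a UMI are those expected after thinning each cell to 5000 UMIs. The 42 Tom- and 37 Tom+ hepatocytes below that depth were left out of them.

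Among the CIP/KIP genes, Cdkn1c (p57) followed lobule position. Its level in bins 1 to 5 was 6.60, 9.67, 26.9, 62.1 and 109 CPM in the Tom- library. In the Tom+ library it was 8.59, 11.03, 27.9, 58.3 and 115 CPM. Every step toward the central vein was upward in both libraries, and bin 5 stood 16.5-fold above bin 1 in Tom- and 13.4-fold in Tom+ cells. The share of cells with a Cdkn1c UMI followed the same order, at 3.27%, 4.51%, 11.2%, 24.2% and 38.2% of Tom- cells and 4.2%, 5.09%, 11.9%, 23.2% and 39.5% of Tom+ cells. Without thinning the end bins held 20.7% and 85.2% of Tom- cells with a UMI, and 29.6% and 86.2% of Tom+ cells.

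In the step from bin 4 to bin 5 this slope lay between those of 2 pericentral markers, Glul and Cyp2e1. Both belong to the score that made the bins, so their own slopes are partly set by it, while Cdkn1c was left out. The level of Cdkn1c in bin 4 was 56.9% (Tom-) and 50.6% (Tom+) of that in bin 5. Glul, a gene of the cell layers next to the central vein, had 13.5% and 14.02% there, and the broader cytochrome Cyp2e1 had 69.4% and 65.9%. From bin 1 to bin 5 Glul rose 44.9- and 36.0-fold and Cyp2e1 21.0- and 15.3-fold, each more than Cdkn1c in the same library. Between bins 5 and 1, Cdkn1c ranked 39 of 10797 genes in Tom- and 54 of 10976 in Tom+ cells from the highest ratio. The genes whose levels ran most like it across 49 sums of a cluster and a library were Cyp1a2, Lect2 and Gulo (Pearson r of log2 levels of 0.975, 0.971 and 0.968), and across 21 hepatocyte sums Gulo, Slc1a4 and Gstm2 (0.99 for each). Cyp1a2, Lect2, Gulo and Slc1a4 are themselves zone 3 markers of the score, and the sums of a library share its depth and preparation.

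**Figure D1:**
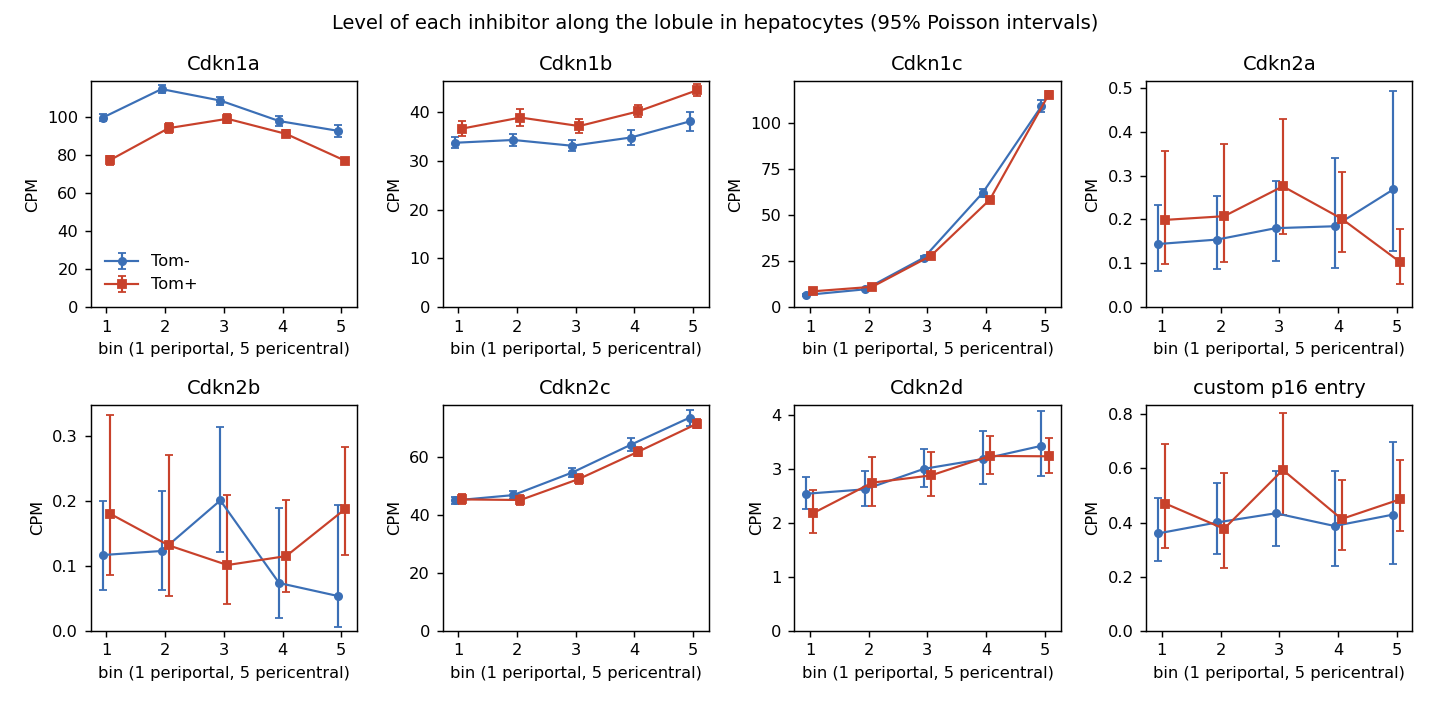
Level of each inhibitor (CPM, linear axes that start at 0) in 5 bins of hepatocytes from periportal (1) to pericentral (5), with Tom- in blue circles, Tom+ in red squares and bars for 95% Poisson intervals. Cdkn1c climbs from 6.60 to 109 CPM in Tom- and from 8.59 to 115 CPM in Tom+ cells and Cdkn2c from 45.1 to 73.7 CPM in Tom- and from 45.4 to 71.6 CPM in Tom+ cells, while Cdkn1a is highest in bin 2 (Tom-) or bin 3 (Tom+) and Cdkn2a, Cdkn2b and the custom p16 entry stay below 1 CPM with wide intervals.

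Cdkn1c was at 7.05 CPM in zone 1-like and 73.4 CPM in zone 3-like cells of the Tom- library, a log2 difference of 3.38 (95% interval 3.29 to 3.47). In the Tom+ library it was at 9.03 and 82.7 CPM, a log2 difference of 3.19 (3.09 to 3.30). Of the 5 members with at least 100 UMIs over both sums, 2 (Cdkn1c and Cdkn2c) were at least 1.5-fold higher in zone 3-like cells of the Tom- library and 0 lower. Of all 11282 genes tested there, 8.91% were that much higher and 5.11% lower. In the Tom+ library 1 of 5 (Cdkn1c) was higher and 0 lower, against 12.3% and 4.91% of 11502 genes. Between bins 5 and 1, 2 of 5 (again Cdkn1c and Cdkn2c) were higher in each library, against 12.9% of genes in Tom- and 16.7% in Tom+ cells, and 0 of 5 were lower, against 6.13% and 5.78%. The median log2 ratio of all genes, weighing each alike, was 0.16 between zones in Tom+, and between bins 5 and 1 it was 0.18 in Tom- and 0.24 in Tom+ cells.

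Cdkn1a (p21) had no such slope. In bins 1 to 5 it was at 99.9, 115, 109, 98.1 and 92.9 CPM in Tom- cells. In Tom+ cells it was at 77.4, 94.3, 99.2, 91.3 and 77.2 CPM. Bin 2 was highest in Tom- and bin 3 in Tom+ cells, bin 5 was lowest in both, and the log2 difference between bins 5 and 1 was -0.10 (-0.16 to -0.05) in Tom- and -0.005 (-0.06 to 0.05) in Tom+ cells. Cdkn1b (p27) went from 33.7 to 38.1 CPM in Tom- and from 36.6 to 44.5 CPM in Tom+ cells between bins 1 and 5, log2 differences of 0.18 (0.09 to 0.26) and 0.28 (0.21 to 0.36). The median of all genes shifted by 0.18 and 0.24 between these bins.

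Of the INK4 genes, Cdkn2c (p18) was higher toward the central vein. Its bins ran 45.1, 46.9, 54.7, 64.4 and 73.7 CPM in Tom- cells. They ran 45.4, 45.2, 52.6, 61.9 and 71.6 CPM in Tom+ cells. The libraries were close at each step, and the log2 difference between bins 5 and 1 was 0.71 (0.64 to 0.78) in Tom- and 0.66 (0.59 to 0.72) in Tom+ cells. Expected shares in zone 1-like and zone 3-like cells were 19.5% and 28.1% of Tom- cells, and 19.5% and 27.5% of Tom+ cells. Cdkn2d (p19Ink4d) was sparse, with 1124 Tom- and 1184 Tom+ UMIs, and went from 2.55 to 3.44 CPM and from 2.19 to 3.24 CPM between the end bins. Its log2 differences were 0.43 (0.12 to 0.74) and 0.57 (0.27 to 0.87).

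Cdkn2a and Cdkn2b were near the limit of detection in hepatocytes. Cdkn2a had 68 UMIs in the Tom- and 74 UMIs in the Tom+ library, 0.172 and 0.186 CPM. Cdkn2b (p15) had 50 and 58 UMIs, 0.127 and 0.145 CPM. The small clusters rich in other markers held part of these. Cdkn2a was at 0.502 and 1.47 CPM (4 and 4 UMIs) in cluster 9 and at 1.06 CPM (2 UMIs) in Tom- cells of cluster 11. Cluster 8 (148 Tom- and 119 Tom+ cells, led by Rsad2, Cxcl10 and Ccl2), which was not among them, had Cdkn2a at 1.15 CPM (6 UMIs) in Tom+ cells and 0 UMIs in Tom- cells, which allows up to 0.683 CPM. Here and below, the bound for 0 UMIs is the level that 3 UMIs would give. It lies below the upper end of the exact Poisson interval. Without clusters 9, 10 and 11, a choice made after the data were seen, Cdkn2a had 62 and 69 UMIs (0.162 and 0.176 CPM) and Cdkn2b 49 and 56 UMIs. At full depth 0.581% of Tom- and 0.689% of Tom+ hepatocytes held a Cdkn2a UMI, and 0.454% and 0.579% a Cdkn2b UMI. Expected shares after thinning were 0.0896% and 0.0881% for Cdkn2a, equal to about 9.84 and 8.79 cells. The custom p16 entry was also sparse, with 157 and 187 UMIs (0.398 and 0.469 CPM) and 1.41% and 1.82% of cells at full depth. No order along the lobule was detectable beyond counting error between the end bins for these 3 features. Between bins 5 and 1, Cdkn2a differed by 0.90 (-0.40 to 2.13) in Tom- and -0.96 (-2.27 to 0.36) in Tom+ cells on the log2 scale. The entry differed by 0.26 (-0.68 to 1.12) and 0.05 (-0.65 to 0.78). Cdkn2b had 13, 12, 19, 4 and 2 UMIs in bins 1 to 5 of the Tom- library (0.117 CPM in bin 1 and 0.0537 CPM in bin 5), a log2 difference of -1.12 (-4.31 to 1.02). In the Tom+ library it had 10, 7, 7, 12 and 22 UMIs (0.181 and 0.188 CPM), a difference of 0.05 (-1.08 to 1.30). In zone 1-like and zone 3-like cells of the Tom- library Cdkn2a had 22 and 26 UMIs, a log2 difference of 0.92 (0.05 to 1.81). In the Tom+ library it had 13 and 36 UMIs, a log2 difference of 0.11 (-0.83 to 1.15).

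Over all Tom- cells kept, 228 held a Cdkn2a UMI, 292 held a UMI of the entry and 7 held both. From the shares of each within 10 classes of depth, 3.84 cells would hold both. In the Tom+ library the numbers were 176, 277 and 9, with 4.83 from the shares. Among hepatocytes 1 Tom- and 3 Tom+ cells held both, against 1.08 and 1.73. The entry's name joins the gene identifier of Cdkn2a (ENSMUSG00000044303) and p16. The sequence that its probes bind was not given in the sources used here, so the entry was kept apart from Cdkn2a.

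The next question was whether the Tom+ library differed from the Tom- library in these genes. Over all hepatocytes Cdkn1c was at 29.5 CPM in Tom- and 56.6 CPM in Tom+ cells, a log2 ratio of 0.94 (0.91 to 0.97), and ranked 160 of 12274 genes from the highest. It was the only 1 of 7 members at least 1.5-fold higher, against 3.63% of genes, and 0 of 7 were that much lower, against 1.69%. The libraries held different parts of the lobule: bins 1 to 5 had 2979, 2787, 2577, 1533 and 1146 Tom- cells but 1229, 1421, 1631, 2675 and 3063 Tom+ cells. Within the bins the log2 ratios of Cdkn1c were 0.38 (0.21 to 0.55), 0.19 (0.04 to 0.34), 0.06 (-0.03 to 0.14), -0.09 (-0.15 to -0.03) and 0.08 (0.03 to 0.13). Marker levels still differed between the libraries within a bin. In bin 1 the zone 3 gene Cyp2e1 was at 188 CPM in Tom- and 263 CPM in Tom+ cells, and the zone 1 gene Cyp2f2 at 402 and 487 CPM. In bin 5 Glul was at 273 and 364 CPM. The bins may thus not hold position alike, and its part in these ratios was not tested. With each bin given equal weight Cdkn1c was at 42.9 CPM in Tom- and 44.2 CPM in Tom+ cells, a log2 ratio of 0.04. Within zone 3-like cells it was at 73.4 and 82.7 CPM (0.17, 0.13 to 0.21), and within zone 1-like cells at 7.05 and 9.03 CPM (0.36, 0.23 to 0.49). The zone 3-like ratio depended on which clusters bore that name, and ran from -0.06 with coarser clusters to 0.97 when each library was clustered on its own.

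Cdkn1a was lower in the Tom+ library at every position. It was at 105 CPM in Tom- and 87.0 CPM in Tom+ hepatocytes, a log2 ratio of -0.27 (-0.29 to -0.25). Expected shares of cells with a UMI were 38.0% and 31.6% (86.3% and 79.7% at full depth). The log2 ratios in bins 1 to 5 were -0.37, -0.28, -0.13, -0.10 and -0.27, and with equal weights for the bins the ratio was -0.23. It was negative in 5 of 5 bins and in 9 of 9 hepatocyte clusters with at least 50 cells of each library, from -0.36 to -0.03. A pair of clusters made up almost wholly of Tom+ cells had the lowest Cdkn1a. In cluster 6 (46 Tom- and 1691 Tom+ cells, led by H2-Q1, Snhg11 and Dbp) it was at 82.4 and 57.6 CPM. In cluster 7 (36 and 461 cells, led by Orm3 and also holding Dbp among its leading genes) it was at 47.8 and 28.5 CPM. Dbp, a gene of the circadian clock output, was at 43.6 and 69.0 CPM in cluster 6 and at 126 and 63.4 CPM in cluster 7. The zone 3-like class, which holds cluster 6, also had cluster 0 with 6.34 and 10.2 CPM and cluster 2 with 4.87 and 6.53 CPM. The zone 1-like class, which holds cluster 7, also had cluster 1 with 9.37 and 12.8 CPM and cluster 3 with 15.5 and 16.6 CPM. Without these clusters, a choice made after the data were seen, the log2 ratio of Cdkn1a was -0.12 over hepatocytes. It was then -0.06 among zone 3-like cells and -0.15 among zone 1-like cells. In the other zone 3-like clusters, 0 and 2, it was at 96.4 and 101 CPM in Tom- and 93.3 and 97.7 CPM in Tom+ cells.

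In no bin and no cluster of this size was a member with enough UMIs 1.5-fold higher or lower (0 of 5 in each bin). Of all genes tested in bins 1 to 5, 0.752%, 1.15%, 0.962%, 1.27% and 1.22% were that much higher and 1.12%, 0.955%, 0.714%, 0.696% and 1.04% lower. In clusters 0 to 5, 0.409%, 1.1%, 0.581%, 0.304%, 1.66% and 0.24% were higher and 1.12%, 0.956%, 1.03%, 0.921%, 0.9% and 0.78% lower. In clusters 8, 9 and 10 the shares were 1.75%, 1.18% and 0.471% higher and 1.52%, 1.79% and 1.15% lower.

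Cdkn1b was higher in the Tom+ library at every position. It was at 34.3 CPM in Tom- and 40.3 CPM in Tom+ hepatocytes, a log2 ratio of 0.23 (0.20 to 0.26). Ratios in bins 1 to 5 were 0.12, 0.18, 0.17, 0.21 and 0.22. It was higher in 5 of 5 bins and 9 of 9 clusters, from 0.03 to 0.23, and without the 2 clusters of mostly Tom+ cells it was 0.18 over hepatocytes. Expected shares were 16.9% and 18.9% (65.7% and 72.2% at full depth).

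Cdkn2c was at 53.2 CPM in Tom- and 58.6 CPM in Tom+ hepatocytes (0.14, 0.11 to 0.17). With equal weights for the bins its ratio was -0.04, and it was higher in 1 of 5 bins and 4 of 9 clusters. Cdkn2d was at 2.85 and 2.97 CPM (0.06, -0.06 to 0.18) and -0.05 with equal weights. Neither Cdkn2a (0.11, -0.39 to 0.60), Cdkn2b (0.20, -0.37 to 0.77) nor the custom p16 entry (0.24, -0.08 to 0.55) gave a difference detectable at this depth. Within zone 3-like cells Cdkn2a had 26 Tom- and 36 Tom+ UMIs (-0.73, -1.50 to 0.06), and within zone 1-like cells 22 and 13. Within zone 3-like cells 0 of 5 members were at least 1.5-fold higher, against 2.26% of genes, and 0 lower, against 1.15%. Within zone 1-like cells the counts were 0 of 5 and 0 of 5, against 1.01% and 1.08%.

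**Figure D2:**
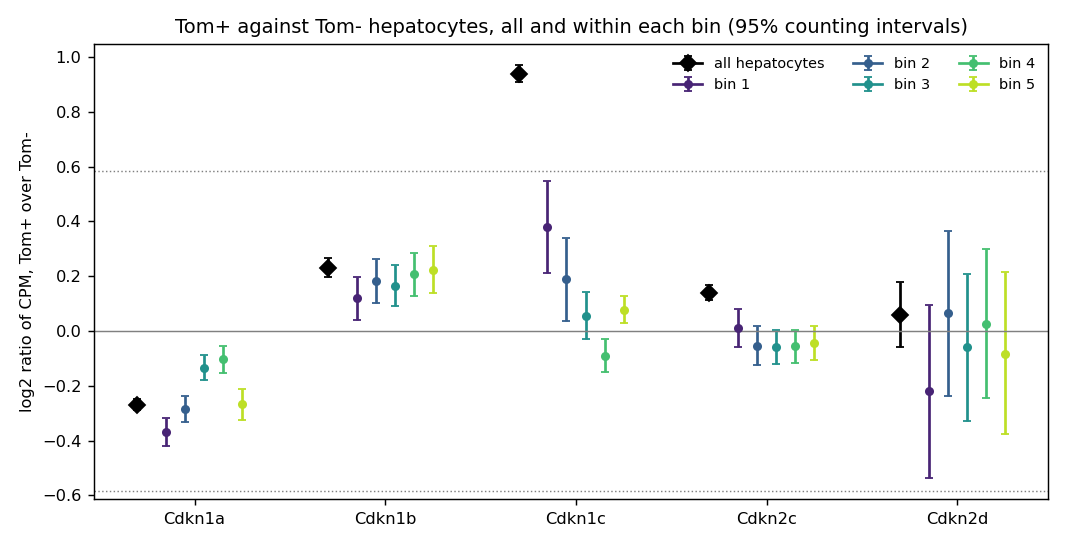
Log2 ratio of Tom+ over Tom- CPM for the 5 inhibitors with enough UMIs, over all hepatocytes and within each bin of lobule position, with bars for 95% counting intervals and dotted lines at 1.5-fold. Cdkn1c is at 0.94 over all hepatocytes and between -0.09 and 0.38 within bins, Cdkn1a is below 0 and Cdkn1b above 0 in each bin.

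**Figure D3:**
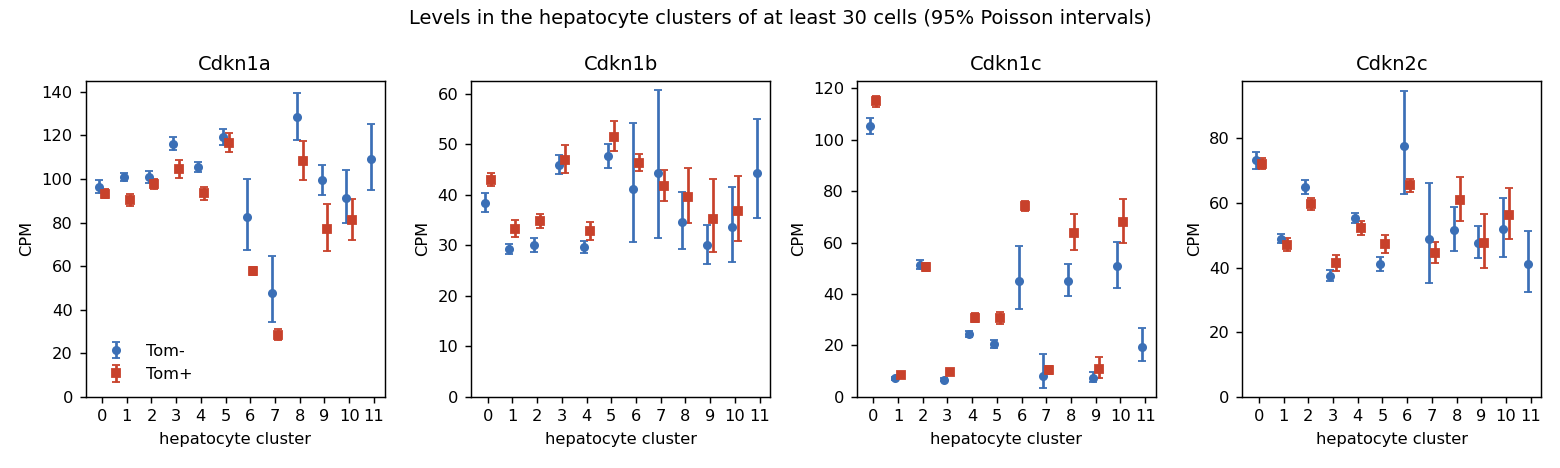
Levels (CPM, axes start at 0) of Cdkn1a, Cdkn1b, Cdkn1c and Cdkn2c in hepatocyte clusters with at least 30 cells, Tom- in blue circles and Tom+ in red squares, with 95% Poisson intervals. Cdkn1a is lowest in clusters 6 and 7, with 57.6 and 28.5 CPM in Tom+ cells, and Cdkn1c is highest in cluster 0, with 105 CPM in Tom- and 115 CPM in Tom+ cells.

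Depth, which was higher in Tom+ cells, moved with some of these levels. When the zone 3-like cells of each library were divided into 3 bins by depth, Cdkn1b was at 43.3, 35.2 and 29.4 CPM in Tom- cells from the shallowest to the deepest bin. In Tom+ cells it was at 48.4, 42.4 and 38.7 CPM. Deeper cells had lower Cdkn1b CPM in both libraries, and Tom+ was above Tom- in each depth bin. In zone 1-like cells it was at 44.9, 35.6 and 30.5 CPM in Tom- and 44.8, 42.8 and 34.5 CPM in Tom+ cells, level in the shallowest bin and higher in Tom+ in the others. In zone 3-like cells Cdkn1a was at 95.8, 90.2 and 105 CPM in Tom- and 78.4, 78.9 and 89.4 CPM in Tom+ cells. In zone 1-like cells it was at 98.4, 106 and 107 CPM and at 71.6, 76.7 and 88.0 CPM. Tom+ was below Tom- in each depth bin of both classes, and Cdkn1a was highest in the deepest cells. Cdkn2c in zone 1-like Tom- cells was at 37.5, 44.7 and 48.3 CPM, the other way from Cdkn1b.

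The Tom+ library was also divided by brightness of the reporter. Its zone 3-like cells fell into 3 bins by tdTomato CPM, with a median of 439, 888 and 1525 CPM. The brighter cells were shallower, with a median of 45148, 34846 and 28701 UMIs per cell (47150, 37785 and 29483 in zone 1-like cells). Cdkn1a was at 94.4, 81.3 and 74.3 CPM from the dimmest to the brightest. Cdkn1c was at 75.3, 85.5 and 90.3 CPM, Cdkn1b at 38.8, 42.5 and 43.4 CPM, and Cdkn2c at 64.5, 67.3 and 67.5 CPM. Cdkn2a, whose promoter drives the switch of the reporter, had 24, 6 and 6 UMIs (0.258, 0.0783 and 0.0958 CPM), and the custom p16 entry had 48, 39 and 24 UMIs (0.516, 0.509 and 0.383 CPM). Neither was higher in brighter cells. That promoter acts on the switch at the time of tamoxifen, so brightness afterwards need not follow these features. In zone 1-like cells Cdkn1a was again lower in brighter cells, at 88.3, 81.3 and 74.0 CPM. Cdkn1c was at 8.91, 9.26 and 8.95 CPM there and Cdkn1b at 37.8, 40.1 and 37.8 CPM, with no order, and Cdkn2c at 45.9, 45.1 and 43.8 CPM. Cdkn2a had 5, 1 and 7 UMIs and the entry 18, 10 and 8 UMIs in these cells, too few to order. tdTomato itself was higher toward the central vein, from 695 CPM in bin 1 to 991 CPM in bin 5 of the Tom+ library and from 64.3 to 121 CPM in the Tom- library, and the part of lobule position in these orders was not tested beyond the zone classes. Depth moved with them too, since shallower Tom+ cells had higher Cdkn1b and lower Cdkn1a in the depth bins, and its part was not tested.

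**Figure D4:**
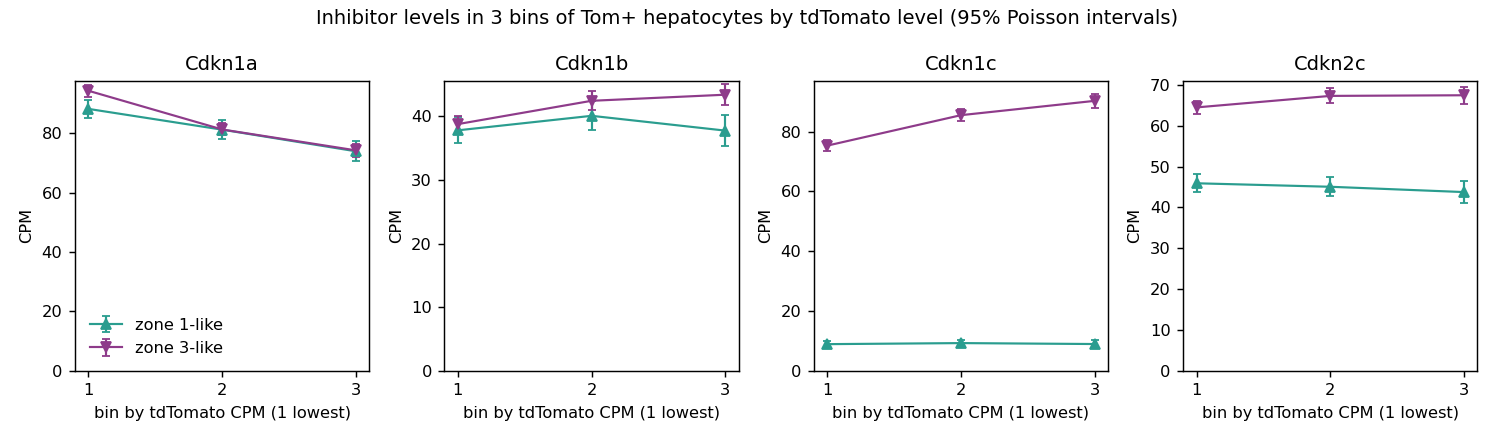
Levels (CPM, axes start at 0) of Cdkn1a, Cdkn1b, Cdkn1c and Cdkn2c in 3 bins of Tom+ cells from the lowest to the highest tdTomato CPM, zone 1-like in green and zone 3-like in purple, with 95% Poisson intervals. Cdkn1a is lower in brighter cells in both classes (94.4 to 74.3 CPM in zone 3-like cells), and Cdkn1c is higher in brighter zone 3-like cells (75.3 to 90.3 CPM) and between 8.91 and 9.26 CPM in zone 1-like cells.

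The median, 90th and 99th percentile of Cdkn1a in single hepatocytes were 88.2, 212 and 382 CPM in Tom- and 64.9, 191 and 395 CPM in Tom+ cells. After thinning 18 of 10980 Tom- and 14 of 9982 Tom+ hepatocytes kept at least 5 Cdkn1a UMIs. A single Tom- zone 3-like cell stood far above the rest, with 94 Cdkn1a UMIs of 10140 (9270 CPM). The same cell held 39 UMIs of Mdm2 and 77 UMIs of Gdf15, both known p53 targets, and 1 Cdkn2c UMI, while the other 5 inhibitors had none. It carried 3.37% of all thinned Cdkn1a UMIs of its class, and the other Tom- hepatocytes had 104.6 CPM. For Cdkn1c the 90th percentile of zone 3-like cells was 175 CPM in Tom- and 196 CPM in Tom+ cells, against medians of 52.0 and 58.7 CPM.

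The 9137 Tom- and 3359 Tom+ cells left out were clustered again, and no cluster was picked for the other leukocyte or cholangiocyte list. For the endothelial, macrophage, stellate and fibroblast, and cycling lists, the cluster with the highest sum was described. These clusters still carried much hepatocyte RNA, their hepatocyte markers summing to between 0.789 and 1.17 times the level in hepatocytes, and whether this was free RNA or joined cells was not tested.

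The cluster richest in division genes held 87 Tom- and 85 Tom+ cells and was led by Ckap2, Cdc20, Hmmr and Cenpf. All 11 cycling markers were at least 1.5-fold above hepatocytes, and their sum was 22.6 and 20.5 times higher. Its 10 endothelial markers were also higher, at 10.6 and 8.00 times the hepatocyte sum. The cluster was given no name because no listed marker was among its 10 leading genes. Cdkn2c was at 173 CPM there in Tom- and 144 CPM in Tom+ cells, log2 differences from hepatocytes of 1.70 (1.58 to 1.83) and 1.30 (1.17 to 1.43). Its expected share of cells was 56.6% and 46.9%, against 22.3% and 24.7% of hepatocytes. Cdkn2d was at 19.3 and 14.6 CPM (59 and 50 UMIs), log2 differences of 2.76 (2.36 to 3.14) and 2.30 (1.86 to 2.70). Cdkn2a was at 5.89 and 3.21 CPM (18 and 11 UMIs), differences of 5.09 (4.26 to 5.86) and 4.11 (3.05 to 5.03), and 16.1% and 8.24% of cells held a UMI at full depth. The custom p16 entry had 4 and 3 UMIs (1.31 and 0.876 CPM), differences of 1.72 (-0.18 to 3.10) and 0.90 (-1.39 to 2.47). Cdkn2b had 0 UMIs in both libraries, which allows up to 0.982 and 0.876 CPM. Of the CIP/KIP genes, Cdkn1a was at 164 and 113 CPM and Cdkn1b at 59.6 and 54.0 CPM. Cdkn1c, at 29.1 and 30.4 CPM, was level with hepatocytes in Tom- (-0.02, -0.34 to 0.28) and below them in Tom+ cells (-0.90, -1.19 to -0.62). With fewer clusters left out of the hepatocytes (marker limit 4 in place of 2.5 times), another cluster was richest in division genes, and the log2 differences there were 0.18 and 0.27 for Cdkn2c, 9.4e-05 and 0.61 for Cdkn2d and 2.35 and 1.85 for Cdkn2a. In the cluster as first described, 4 of 5 tested members (Cdkn1a, Cdkn1b, Cdkn2c and Cdkn2d) were at least 1.5-fold higher in Tom- cells, against 21.3% of genes, and 0 lower, against 4.07%. In Tom+ cells 2 of 5 (Cdkn2c and Cdkn2d) were higher and 1 (Cdkn1c) lower, against 17.7% and 4.36%. Under marker limit 4 none of these 4 reached 1.5-fold in Tom- cells, with Cdkn1a at -0.02 and Cdkn1b at 0.37, and in Tom+ cells Cdkn2d alone still did, with Cdkn1c at 0.10. The genes whose sums ran most like Cdkn2d over the 49 sums were Kif2c, Pbk and Esco2 (r of 0.89, 0.88 and 0.88), all genes of dividing cells, and H1fx, Spc24 and H2afx (0.89, 0.83 and 0.82) ran most like Cdkn2c. The order was another one across the 21 hepatocyte sums alone. There Srprb, Ncald and Rtf1 (0.84 for each) ran most like Cdkn2d, and Nhp2, Mlycd and Vcp (0.95 for each) most like Cdkn2c.

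The cluster richest in macrophage markers held 471 Tom- and 174 Tom+ cells, was led by Mmp12 and Gpnmb, and had a median of 7165 and 6294 UMIs. Its macrophage markers summed to 45 and 41.5 times and its cycling markers to 8.59 and 5.92 times the level in hepatocytes. No listed marker was among its 10 leading genes, so it was left without a cell type name. Cdkn2a was at 5.17 CPM (26 UMIs) in Tom- and 4.54 CPM (10 UMIs) in Tom+ cells, log2 differences of 4.91 (4.2 to 5.58) and 4.61 (3.50 to 5.57). The custom p16 entry was at 3.18 CPM (16 UMIs) and 1.36 CPM (3 UMIs), differences of 3.0 (2.16 to 3.74) and 1.54 (-0.75 to 3.11). Cdkn2b had 3 and 6 UMIs, log2 differences of 2.24 and 4.23. Under other ways of clustering or filtering these ran from 1.98 to 2.93 in Tom- and from 3.28 to 4.31 in Tom+ cells. These ranges leave out counting error, which is large at 3 and 6 UMIs, so the Tom- difference in particular is not firm. Cdkn1b was at 72.0 and 76.4 CPM, differences of 1.07 (0.92 to 1.22) and 0.92 (0.70 to 1.14), and Cdkn2d at 11.3 and 6.82 CPM (57 and 15 UMIs). The Tom+ difference of Cdkn2d, 1.2 (0.36 to 1.93), was below 0 under 6 of 9 other ways of clustering or filtering, and that of Cdkn1b was 0.36 with cells of 3000 to 8000 genes. In each library 2 of 5 members (Cdkn1b and Cdkn2d) were at least 1.5-fold higher, against 37.8% of genes in Tom- and 31.7% in Tom+ cells, and 0 lower, against 12.1% and 11.4%. The members' share was close to that background in both libraries.

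In the endothelial-like cluster (414 Tom- and 153 Tom+ cells, endothelial markers at 39.6 and 56.9 times the hepatocyte sum) Cdkn2a was at 2.03 and 3.53 CPM from 10 and 6 UMIs. The log2 differences from hepatocytes were 3.56 (2.43 to 4.52) and 4.25 (2.76 to 5.44). The custom p16 entry had 2 and 1 UMIs there (0.406 and 0.588 CPM), differences of 0.03 (-3.03 to 1.90) and 0.32 (-4.99 to 2.82). Cdkn1c was at 23.1 and 23.5 CPM, below hepatocytes by -0.35 (-0.63 to -0.09) and -1.27 (-1.75 to -0.82) on the log2 scale. Here 1 of 5 members was higher in Tom- (Cdkn2d, 23.7% of genes) and 1 of 5 lower in Tom+ cells (Cdkn1c, 18.8% of genes), and 0 were lower in Tom- (17.7%) and 0 higher in Tom+ (24%). Cdkn2d differed by 0.83 (0.20 to 1.40) in Tom- and by -0.75 (-3.03 to 0.80) in Tom+ cells, where it had 3 UMIs and did not pass 1.5-fold with the 0.5 UMIs that each call adds to both sums. The cluster richest in stellate and fibroblast markers (168 and 60 cells, led by Dpep1 and Mgp) held 0 Cdkn2a UMIs, which allows up to 2.07 and 6.86 CPM, and 1 and 0 UMIs of the entry. Cdkn1b was at 73.9 and 52.6 CPM there, and Cdkn1a at 69.7 and 32.0 CPM. In Tom- cells 2 of 5 members (Cdkn1b and Cdkn2d) were higher, against 34.8% of genes, and 0 lower, against 11.6%. In Tom+ cells 1 was higher (Cdkn2d, from 2 UMIs) and 1 lower (Cdkn1a), against 41% and 14.4%. Most of these calls depended on how the cluster was drawn. The Tom- difference of Cdkn1b, 1.11, was 0.27 with coarser clusters (resolution 0.4) and 0.21 with cells of 3000 to 8000 genes. The Tom+ difference of Cdkn1a, -1.44, was -0.13 and -0.16 under these settings, -0.53 with the inhibitors allowed in clustering and -0.45 without the highest doublet scores. That of Cdkn2d in Tom+, 0.62, was 0.47 at resolution 0.4 and with 3000 to 8000 genes.

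**Figure D5:**
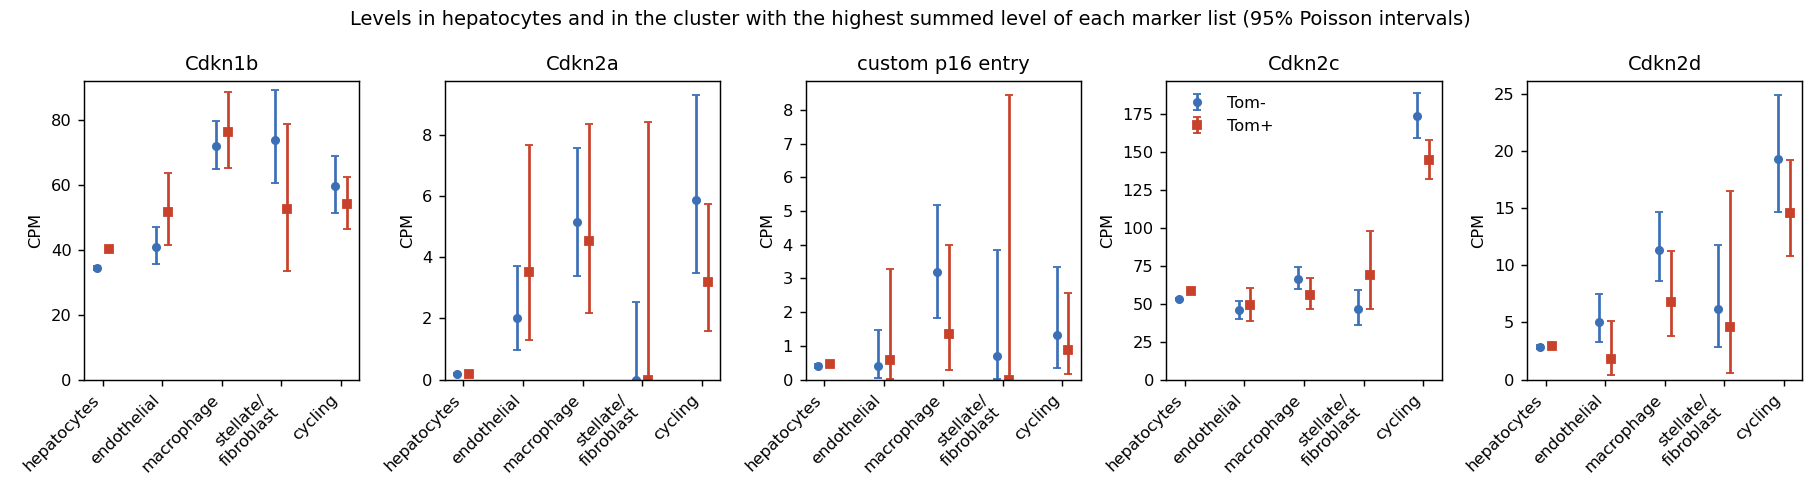
Levels (CPM, axes start at 0) of Cdkn1b, Cdkn2a, the custom p16 entry, Cdkn2c and Cdkn2d in hepatocytes and in left-out clusters, Tom- in blue circles and Tom+ in red squares, with 95% Poisson intervals. The clusters are those with the highest sum of endothelial, macrophage, stellate and fibroblast, or cycling markers. Cdkn2c and Cdkn2d are highest in the cluster of division genes (173 and 144 CPM, 19.3 and 14.6 CPM), and Cdkn2a is above 3 CPM in it and in the macrophage-rich cluster against below 0.2 CPM in hepatocytes.

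The partners of these inhibitors were read from fixed lists. Of 11 cyclins and kinases measured, 3 (Ccnd1, Ccne1 and Cdk6) were at least 1.5-fold higher in zone 3-like cells of both libraries. Over all genes tested, 8.91% were that much higher and 5.11% lower in Tom- cells, and 12.3% and 4.91% in Tom+ cells. Ccnd1, the D-type cyclin that works with the kinases INK4 proteins bind, was at 20.0 and 50.0 CPM in zone 1-like and zone 3-like Tom- cells and at 21.1 and 57.8 CPM in Tom+ cells. The sparse cyclins Ccna2 and Ccnb2 were 1.5-fold lower in Tom- cells. Of the RB and E2F genes, 2 of 13 (E2f6 and E2f8) were higher and 2 (E2f2 and E2f7) lower in Tom- cells, and 2 of 12 were higher and 1 lower in Tom+ cells. E2f8, a repressing E2F, was at 2.42 and 11.8 CPM in Tom- and 2.05 and 15.4 CPM in Tom+ cells. Of the other genes that set kinase activity, 2 of 13 were higher and 1 lower in Tom- cells, and 3 of 13 and 1 in Tom+ cells. Cables1, a kinase-binding adaptor, went the other way, at 13.2 and 3.32 CPM in Tom- and 13.9 and 3.12 CPM in Tom+ cells. Wee1, a kinase that blocks Cdk1, was in the higher group in both.

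Regulators of the inhibitors were read in the same way. Of the 15 upstream genes tested in Tom- cells 2 were higher in zone 3-like cells (Myc and Klf6) and 0 lower. Of 16 in Tom+ cells 4 were higher (Mdm2, Myc, Klf4 and Klf6) and 0 lower. Of 16 Polycomb and related genes, which include Kdm6b, a demethylase that opposes Polycomb, 0 passed 1.5-fold in either library. Neighbours of Cdkn1c were listed from its imprinted region, which is wider than its own imprinted domain and includes Igf2 and H19. Of these, 0 of 9 were higher and 1 lower (Osbpl5) in Tom- cells. In Tom+ cells 3 of 10 were higher (Kcnq1, Phlda2 and Igf2) and 1 lower (Osbpl5). Slc22a18 went the same way as Cdkn1c without passing 1.5-fold, at 41.6 and 54.2 CPM in Tom- and 46.6 and 60.4 CPM in Tom+ cells. The log2 differences of Cdkn1c were 3.38 and 3.19. The shares over all genes, 8.91% higher and 5.11% lower in Tom- and 12.3% and 4.91% in Tom+ cells, stand beside these counts as well. The lists' median log2 differences ran from -0.01 to 0.26 in Tom- cells, where all genes had 0.07, and from 0.15 to 0.43 in Tom+ cells, where all genes had 0.15.

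Between the libraries, 0 of 11 cyclins and kinases passed 1.5-fold over all hepatocytes, with Ccnd1 at 35.2 CPM in Tom- and 47.0 CPM in Tom+ cells (0.41, 0.38 to 0.45). Of 13 RB and E2F genes 1 was higher (E2f8, 6.35 and 11.1 CPM), of 13 other control genes 1 (Wee1), of 16 upstream genes 2 (Myc, 10.4 and 17.0 CPM, and Klf4), and of 16 Polycomb genes 1 (Cbx8). In the imprinted region 0 of 11 were higher and 1 was lower (Osbpl5). No gene of the other 5 lists was lower. Of all genes tested 3.63% were that much higher and 1.69% lower. E2f8, Myc and Ccnd1 were also higher in zone 3-like than in zone 1-like cells, and over all hepatocytes the libraries held different shares of lobule positions. Within zone 3-like cells E2f8 (11.8 and 15.4 CPM) and Myc (15.4 and 21.6 CPM) did not pass 1.5-fold, and neither did within zone 1-like cells. Wee1, Klf4 and Cbx8 were still at least 1.5-fold higher in Tom+ within zone 3-like cells. That class includes cluster 6, with 46 Tom- and 1691 Tom+ cells. Wee1 also passed within zone 1-like cells and in bins 1 and 5, and Cbx8 in bins 1 and 4. The transcription factor E2f2 passed within zone 1-like cells and in bin 2. Kcnq1 was higher in bin 3 and Tnfrsf23 in bin 5, and the cyclin Ccna2 was lower in bin 1 and higher in bin 5. Of all genes tested, 2.26% were that much higher within zone 3-like cells and 1.01% within zone 1-like cells, and in the bins 0.752% to 1.27% were higher and 0.696% to 1.12% lower.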

How the data were processed

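Whole-number UMI counts per feature and barcode were deposited by the authors, who used Cell Ranger 7.2.0 and mm10 per the submitters' processing notes. Each group had 1 library (681279005 UMIs in Tom-, 715333889 in Tom+), so values were given with 95% exact Poisson or Clopper-Pearson intervals, which cover counting error only, and no test was run. Barcodes with 2000 to 10000 genes, at most 100000 UMIs and a mitochondrial fraction of at most 0.05 were kept. Both libraries were clustered together (scanpy 1.11.5, leidenalg 0.10.2, 2000 variable genes without the inhibitors and their pathway genes, 30 principal components, 20 neighbours, resolution 0.8). Clusters under 0.75 of the median gene number were left out of the hepatocytes. So were clusters with Ptprc, Dcn or Pecam1 at 2.5 times its median over the clusters or more, and the rest were clustered again. A cluster was named from at least 3 markers of a list at 5 CPM and 1.5-fold, more than of any other list. At least 1 marker of that list also had to be among its 10 leading genes by fold at 20 CPM or more. Scrublet called 1 of 20159 and 0 of 13378 cells, so the caller did not work and doublets stayed in.

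Sums of UMIs were compared as log2 ratios of CPM. Genes with at least 100 UMIs over both sums were counted as tested, and as called past 1.5-fold after 0.5 UMIs were added to each sum. Shares are those expected after thinning each cell to 5000 UMIs (hypergeometric), with intervals on the expected count, and 1 random draw gave thinned ratios and spread. The ratio calls, their intervals and the thinning were tested on simulated counts, and the filters, clustering, naming and score were not. The simulated sums were Poisson, as the intervals assume, so wider spread between cells was not covered. In hepatocytes the variance of thinned Cdkn1c counts over their mean was 1.39 in Tom- and 1.40 in Tom+ cells. The members and lists were chosen with earlier results of these data known. Genes named were the members, the genes of each pathway list that passed 1.5-fold or had its highest or lowest ratio at 10 CPM or more, and the 3 genes most like each member with at least 500 UMIs (Pearson r of log2(CPM + 1) over sums of at least 50 cells). Alternatives changed the cell filters, clustering, the hepatocyte clusters used, zone classes, scaling, thinning, fold and minimum count. Python 3.11.15, numpy 2.4.6, scipy 1.17.1 and pandas 2.3.3 were used.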

Additional observations from a re-analysis of the deposited data

Results flagged for a closer look

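A pair of values came from cells that the comparisons left out, and were picked because the Tom+ level lay above the Tom- level there. In barcodes with under 2000 genes Cdkn1b was at 84.0 CPM in Tom+ (270 UMIs, 1682 barcodes) and 65.3 CPM in Tom- (406 UMIs, 2663 barcodes). In cells with over 100000 UMIs Cdkn1c was at 47.4 CPM in Tom+ (8140 UMIs, 1239 cells) and 26.4 CPM in Tom- (1196 UMIs, 360 cells). Neither set of cells was placed along the lobule.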

How the results depend on the processing

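No paired analysis was possible because there was 1 library in each group. Of the recomputed counts of members past the fold, 96 stayed within 1.5 times the reported count and 22 did not, and of the log2 ratios 1110 stayed within error, 190 moved and 29 reversed. Cdkn1c between the zones ranged from 3.0 to 4.05 in Tom- and 3.04 to 3.75 in Tom+ cells. Leaving out the hepatocyte clusters rich in other markers, chosen after the data were seen, moved no count and no ratio beyond error. The causes of the changes below were not tested unless stated.

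The zone count in Tom+ became 2 at resolution 0.4, with 1000 to 10000 or 3000 to 8000 genes, with clusters of few genes kept, marker limit 4, libraries clustered apart, zones from the score, or thinning. In Tom- it became 1 at resolution 1.2, with the inhibitors and pathway genes allowed in clustering, libraries clustered apart, median-of-ratios scaling or a fold of 2. The bin 5 against bin 1 count became 1 in each library under that scaling and under a fold of 2, and 4 in Tom- with no minimum count. The Tom+ against Tom- count became 2 in hepatocytes after thinning, where Cdkn2a had 15 and 3 UMIs left, and 0 at a fold of 2. In zone 3-like cells it became 1 with libraries clustered apart and 2 with no minimum count.

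Reversed log2 ratios, those whose reported interval excluded 0 and whose sign changed, were these. Cdkn1a between zones in Tom+ was -0.11 (resolution 0.4), -0.0077 (resolution 1.2), -0.030 (1000 genes), -0.021 (3000 genes), -0.10 (few-gene clusters kept), -0.13 (marker limit 4), -0.0046 (zones from the score) and -0.11 (median-of-ratios). Cdkn1b there was -0.058 under that scaling and -0.060 after thinning. Tom+ over Tom- in zone 3-like cells, Cdkn1c was -0.061 (resolution 0.4) and -0.0069 (marker limit 4), and Cdkn2c 0.18 (libraries apart). In the macrophage-rich cluster Cdkn2c in Tom- was -0.26 (resolution 1.2), -0.24 (3000 genes), -0.36 (few-gene clusters), -0.44 (marker limit 4), -0.27 (inhibitors allowed) and -0.37 (highest doublet scores left out). Cdkn2d in Tom+ was -0.89, -0.17, -0.58, -2.04, -0.47 and -1.15 under the same 6 settings. In the endothelial-like cluster Cdkn1b in Tom+ was -0.020 (3000 genes). At marker limit 4 the cluster of division genes gave -0.017 (Tom-) and -0.078 (Tom+) for Cdkn1a and 0.10 (Tom+) for Cdkn1c. Ratios whose interval included 0 changed sign more freely and are not in that list. Among them were Cdkn1b between zones in Tom- (8 of 15 alternatives), Cdkn2a and Cdkn2b between zones in Tom+ (10 and 9 of 15), Cdkn1a between bins 5 and 1 in Tom+ (5 of 15), Cdkn2c between libraries in zone 1-like cells (4 of 15) and Cdkn1c in the cluster of division genes in Tom- (3 of 9).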
